A study of Homo sapiens with 4 samples.

Results

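The genes described here are 10 human genes that supply cells with amino acids, namely the transporter genes SLC7A5, SLC3A2, SLC7A1, SLC7A6, SLC7A11, SLC1A4, SLC1A5, SLC38A1 and SLC38A2 and the asparagine synthetase gene ASNS. They were chosen by name and make up 10 of the 19881 protein-coding genes that have a canonical transcription start site (TSS) in the GENCODE 44 annotation lifted to GRCh37, the assembly also called hg19. The study asked how single transcription factor binding sites affect the growth of HAP1 cells, and ChIP-seq was performed from unedited HAP1 cells. HAP1 is an adherent line obtained from the leukemia line KBM-7 and is labelled near-haploid, although early passages are known as haploid. The cells were grown in serum-containing medium with added L-glutamine. Chromatin was immunoprecipitated with an antibody against MYC, with an antibody against histone H3 acetylated at lysine 27 (H3K27ac) or with control rabbit IgG (rIgG), and Input DNA served as a further control. The 4 samples are 1 library each of 1 cell line, without replicates, and no test between samples was run. The study used this ChIP-seq to check that MYC and H3K27ac signal was present. It states that no quantitative analysis was based on it, so the ranks and fold enrichments below go beyond that use. Peaks of MYC were called against Input and peaks of H3K27ac against rIgG.

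Most amino acids enter mammalian cells through solute carriers that exchange 1 amino acid for another or move it together with sodium. MYC, a transcription factor that pairs with MAX and prefers the E-box CACGTG, is known to raise the expression of several of these carriers in growing cells. Several of these genes are also known to respond to amino acid shortage through ATF4, which pairs with C/EBP proteins on composite elements such as TGATGNAA. H3K27ac marks active promoters and enhancers.

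Fold enrichment below is the authors' MACS2 value, the fragments at a peak summit divided by the expected background from the control, at the caller's scale and with 1 added to both. The added 1 lowers the ratio most where the background is small. Its median was 5.57 over the 1723 MYC peaks and 5.30 over the 87087 H3K27ac peaks. From the deposited fold enrichment and p-value, the whole number of fragments at the summit was recovered for 1711 of the MYC peaks and 87064 of the H3K27ac peaks. Intervals beside a fold enrichment are exact 95% Poisson intervals of that number. They cover the counting error of the immunoprecipitated library only and leave out the error of the control. The smallest number of fragments at the summit of a called peak was 7 for MYC and 11 for H3K27ac. Both hold where the expected background was lowest, and more fragments are needed where it is higher. A gene without a MYC peak is thus one at which no peak was called, which does not show that MYC was absent. The MYC library also had the fewest uniquely mapped reads of all libraries, fewer than its Input.

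The leukemic origin of the line was compared with blood cell markers. Of the 9 such genes counted here, TAL1 (fold enrichment 14.6) and SPI1 (5.00) had an H3K27ac peak within 1 kb of the canonical TSS, where 66.0% of all protein-coding genes had one. The other 7, PTPRC, CD34, LMO2, ITGAM, MPO, CD33 and GATA1, had none, and no marker had a MYC peak there.

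A MYC peak lay within 1 kb of the canonical TSS, here called the promoter, in 4 of the 10 genes, SLC7A1, SLC1A5, SLC38A1 and ASNS. By the same rule 3.69% of all protein-coding genes had one, and 5.53% of those with an H3K27ac peak at the promoter. With any annotated TSS of a gene, SLC3A2 joined these genes, against 4.31% of protein-coding genes. The gene body with 10 kb on either side held a MYC peak in the same 5 of 10 genes, against 8.96% of all genes, and 6 MYC peaks lay in these regions. When peaks were limited to a −log10 q of 10 or more, SLC7A1 was the single gene left with a MYC promoter peak, against 1.28% of all genes. H3K27ac covered part of the promoter in all 10 genes, where 66.0% of protein-coding genes had such a peak. The regions with 10 kb on either side held 66 H3K27ac peaks, at least 1 in each gene, and 82.1% of all genes had a peak there. Distal peaks, over 1 kb from every annotated TSS, made up 0 of the 6 MYC peaks and 41 of the 66 H3K27ac peaks (62.1%). Over all peaks in the regions of protein-coding genes, drawn in the same way, 28.6% of MYC peaks and 61.1% of H3K27ac peaks were distal.

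**Figure D1:**
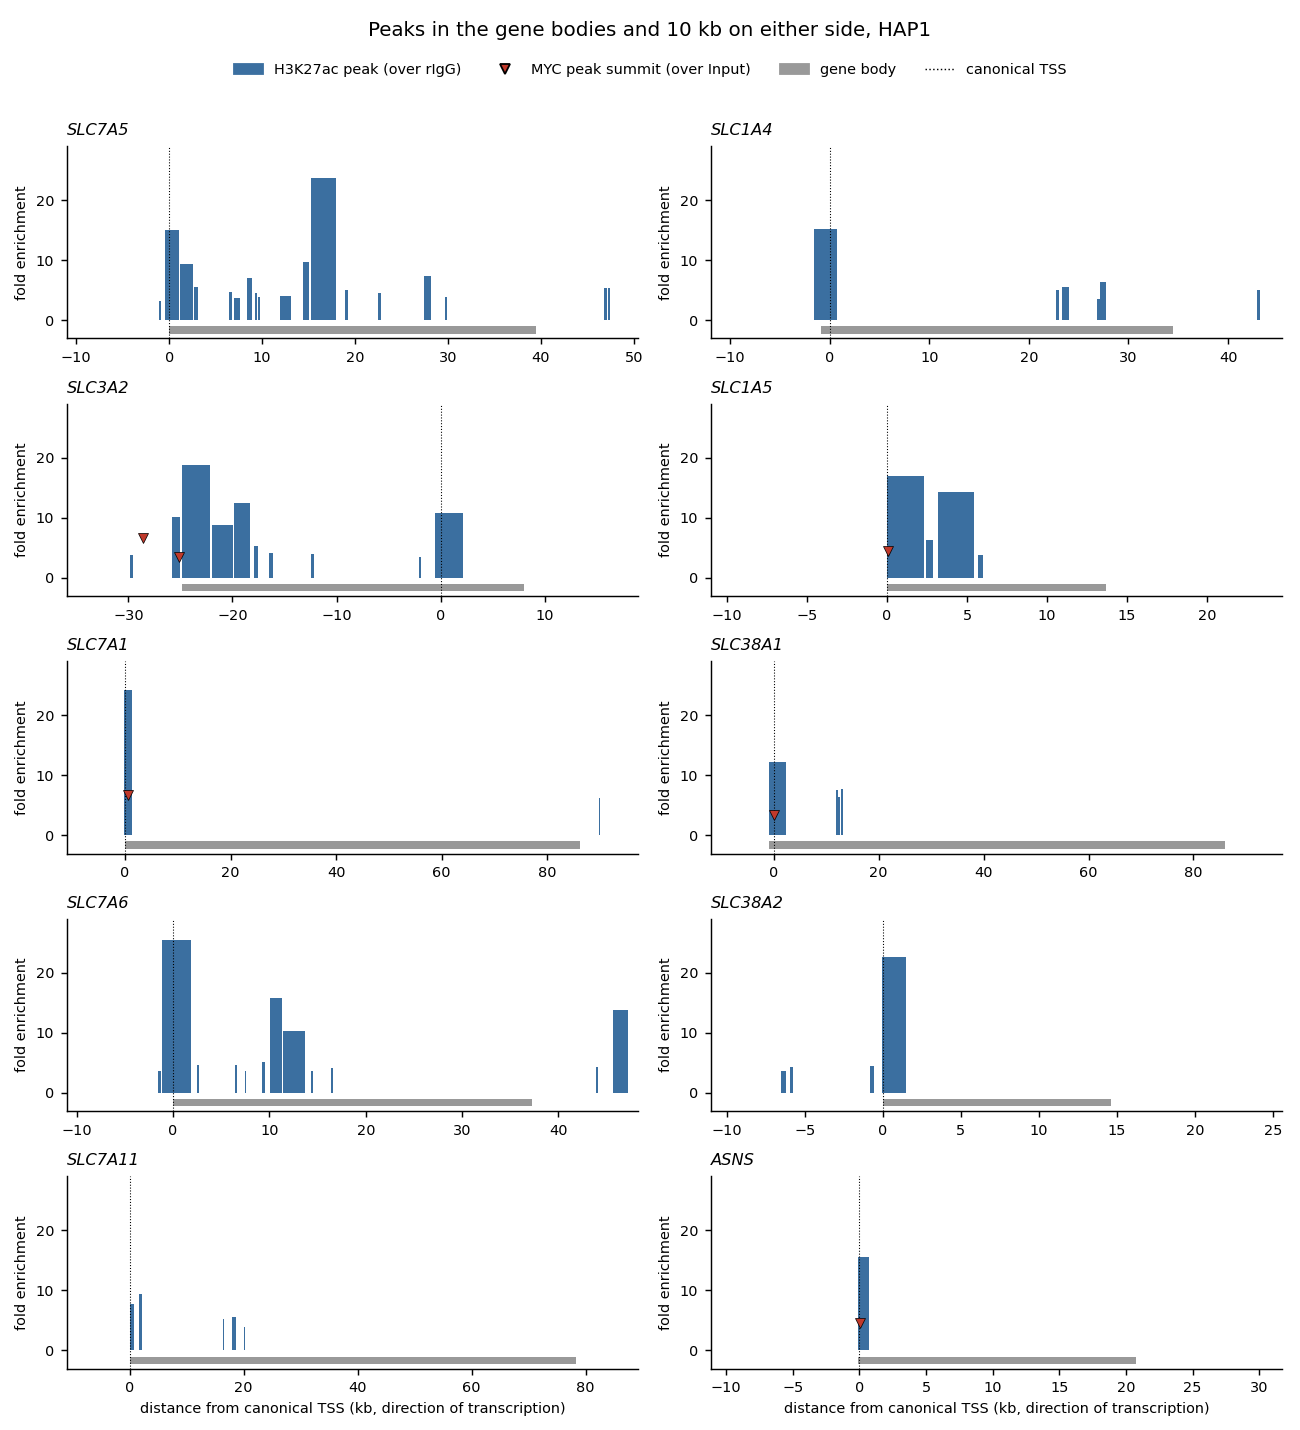
Peaks in each gene body and 10 kb on either side, drawn against the distance from the canonical TSS in kb in the direction of transcription. Blue blocks are H3K27ac peaks with their fold enrichment over rIgG as height, red triangles are MYC summits with their fold enrichment over Input, and the grey bar is the gene body. MYC summits sit near a TSS in SLC7A1, SLC1A5, SLC38A1 and ASNS and upstream of the canonical TSS in SLC3A2. SLC7A5, SLC7A6, SLC7A11, SLC1A4 and SLC38A2 have no MYC peak. H3K27ac covers the largest shares of the region in SLC3A2 and SLC7A5.

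SLC7A5 encodes the light chain of the heterodimeric exchanger that brings leucine and other large neutral amino acids into cells. The gene lies at chr16:87863629-87903113 on the minus strand of GRCh37. No MYC peak was called in its region, and the nearest lay 975 kb from the TSS. The promoter holds 3 copies of CACGTG within 1 kb of the TSS, more than any other of the 10 genes. One lies 125 to 130 bases upstream of the TSS, and the others lie in intron 1 at 775 and 964 bases downstream. All 3 lie under the H3K27ac peak at chr16:87902107-87903620, whose fold enrichment was 15.0 (12.6 to 17.6, 141 fragments). The stretch at chr16:87903214-87903313 is shown because it joins the upstream E-box and a CACGCG variant, both in capitals, outside any annotated exon. All sequences are GRCh37 reference sequence, read 5′ to 3′ on the strand of the gene, so a motif found on the other strand appears as its reverse complement.
SLC7A5 upstream: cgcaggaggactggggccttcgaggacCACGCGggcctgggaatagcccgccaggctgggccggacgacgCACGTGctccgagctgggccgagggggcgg

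The start of SLC7A5 is not unique in the genome. Among windows of 100 bases on either side of the TSS of the 10 genes, this was the single one with near-identical copies, 2 in number, at the pseudogenes SLC7A5P1 (93.5% identity) and SLC7A5P2 (91.3%) on chromosome 16. Both copies carried MYC peaks. SLC7A5P1 had 2, with fold enrichments of 5.34 (3.40 to 8.04, 21 fragments) at chr16:29624038-29624303 and 4.43 (2.60 to 7.13, 15 fragments) at chr16:29624593-29624913. SLC7A5P2 had 1 at chr16:21531884-21532115, with a fold enrichment of 5.80 (4.25 to 7.74, 44 fragments) and a −log10 q of 16.5. The windows around these 3 summits were from 94.6% to 95.5% identical to sequence at SLC7A5. The first of the SLC7A5P1 peaks holds 2 copies of CACGTG, and the SLC7A5P2 peak holds 1. H3K27ac peaks covered both copies, with fold enrichments of 18.7 (16.2 to 21.6) at SLC7A5P1 and 14.8 (13.2 to 16.5) at SLC7A5P2. The 30 bases around the upstream E-box are shown for the gene at chr16:87903226-87903255, for SLC7A5P1 at chr16:29625159-29625188 and for SLC7A5P2 at chr16:21531891-21531920, all on the minus strand with CACGTG in capitals. They differ at 1 base between SLC7A5 and SLC7A5P1 and at 0 between SLC7A5 and SLC7A5P2. The stretch shown lies inside the MYC peak at SLC7A5P2 and outside both MYC peaks at SLC7A5P1.
SLC7A5: ggccggacgacgCACGTGctccgagctggg
SLC7A5P1: ggccggaggacgCACGTGctccgagctggg
SLC7A5P2: ggccggacgacgCACGTGctccgagctggg
How reads that match more than 1 of these places were assigned is not given in the sources used here. The part that shared sequence plays in the presence of MYC peaks at the pseudogenes and their absence at SLC7A5 was not tested. Its part in the H3K27ac fold enrichments at the SLC7A5 promoter and at both copies was not tested either.

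Away from its promoter SLC7A5 had the most H3K27ac of the 10 genes by number of peaks, with 18 in the region, of which 15 were distal. The highest of them was a peak in intron 1 at chr16:87885197-87887884, whose summit lay 15473 bases downstream of the TSS. Its fold enrichment was 23.6 (19.9 to 27.9, 136 fragments), 1.58 times that of the promoter peak. The fragment counts of both peaks were close (136 and 141), and the difference in fold enrichment lies in the expected background from the rIgG control, 3.28 at the intronic and 6.0 at the promoter summit. The error of that background is not in the intervals, so a higher intronic peak is not established. H3K27ac covered 28.0% of the bases within 10 kb of the SLC7A5 TSS, against a median of 9.91% over genes with an H3K27ac promoter peak.

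SLC3A2 encodes the heavy chain that carries SLC7A5, SLC7A6 and SLC7A11 to the plasma membrane. The gene lies at chr11:62623476-62656352 on the plus strand, and its canonical TSS, at position 62648368, is not its first. The canonical promoter carried H3K27ac at a fold enrichment of 10.8 (9.38 to 12.4) and no MYC peak. The highest H3K27ac peak of the region lay instead at the upstream TSS, at chr11:62623524-62626215, with a fold enrichment of 18.8 (16.5 to 21.4, 229 fragments). The canonical promoter had 204 fragments, and the expected background was 8.0 at the upstream and 13 at the canonical summit. A MYC peak at chr11:62623169-62623689 overlapped the start of the gene there, with a fold enrichment of 3.51 (2.21 to 5.33, 20 fragments) and a −log10 q of 3.15. This start is shared with SNHG1, a long noncoding RNA gene that hosts small nucleolar RNAs and is transcribed in the opposite direction. The peak cannot be assigned to either gene from these data. Another MYC peak at chr11:62619579-62620157, near an annotated start within SNHG1, had a fold enrichment of 6.62 (4.07 to 10.3, 18 fragments). It is the only 1 of the 6 MYC peaks that shared no base with an H3K27ac peak, the nearest of which was 750 bases away, and 54.5% of all MYC peaks shared none. The MYC peak at the shared start holds CACGCG, 170 bases from its summit, between the starts of the divergent genes. It is shown in capitals on the plus strand at chr11:62623424-62623453.
SLC3A2 and SNHG1: ctacggcgagcgCACGCGcatacgttgacc

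SLC7A6 and SLC7A11 encode other light chains of the SLC3A2 heavy chain. SLC7A6 exchanges cationic against neutral amino acids, and SLC7A11 exports glutamate for cystine, which cells use to make glutathione. SLC7A6, at chr16:68298419-68335726 on the plus strand, had the highest H3K27ac promoter fold enrichment of the 10 genes, 25.4 (22.5 to 28.6, 275 fragments). That value ranked 2831 among the 13127 genes with such a peak. Its region held 12 H3K27ac peaks and no MYC peak. SLC7A11, at chr4:139085251-139163503 on the minus strand, was at the other end of the order with 7.79 (5.76 to 10.3, 46 fragments), at rank 11441. An intronic peak 1910 bases downstream of its TSS had a fold enrichment of 9.41 (6.73 to 12.8), and the intervals of the promoter and intronic peaks overlap. No MYC peak was called within the SLC7A11 region, and the nearest lay 802 kb from the TSS. The SLC7A11 promoter is shown for a pair of TGATGNAA matches in opposite orientation from 95 to 69 bases upstream of the TSS, on the minus strand at chr4:139163571-139163600. They lie outside the H3K27ac peak, which ends at position 139163481.
SLC7A11: gcTGATGCAAacctggagaatTTGCATCAt

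SLC7A1 encodes the main uptake system for arginine and lysine in many cell types. Its MYC peak was the strongest among the 6 by −log10 q (12.2) and by fold enrichment, at 6.80 (4.57 to 9.79, 27 fragments). It ranked 232 among the 733 genes with a MYC promoter peak. The gene lies at chr13:30083551-30169825 on the minus strand, and the peak at chr13:30169033-30169517 has its summit in intron 1, 574 bases downstream of the TSS. The whole MYC peak was covered by H3K27ac, whose peak there had a fold enrichment of 24.2 (21.4 to 27.3, 262 fragments). Just 1 distal H3K27ac peak lay in the region, 89948 bases downstream of the TSS. The 101 bases around the MYC summit, at chr13:30169201-30169301 on the minus strand, hold TGATGNAA 36 bases from the summit and no CACGTG. This motif lies within 50 bases of the summit in 1.74% of all MYC peaks.
SLC7A1 MYC summit: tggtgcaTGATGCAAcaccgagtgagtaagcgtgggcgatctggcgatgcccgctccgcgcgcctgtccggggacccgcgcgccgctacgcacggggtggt
A further TGATGNAA match lies in the untranslated part of exon 1, 7 to 14 bases downstream of the TSS, at chr13:30169800-30169829.
SLC7A1 exon 1: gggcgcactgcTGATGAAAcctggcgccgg

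SLC1A5 and SLC1A4 encode sodium-dependent exchangers of small neutral amino acids, and SLC1A5 also carries glutamine. A MYC peak was called at SLC1A5 and not at SLC1A4, and the difference was not tested. SLC1A5, at chr19:47278140-47291851 on the minus strand, had a MYC peak at chr19:47291678-47291916 with a fold enrichment of 4.51 (3.0 to 6.53, 26 fragments) and a −log10 q of 6.90. The summit lay in the untranslated part of exon 1, 63 bases downstream of the TSS. The TSS of an antisense noncoding gene, ENSG00000275719, also lies within 1 kb of this peak. SLC1A4, at chr2:65215611-65250999 on the plus strand, had no MYC peak, and the nearest lay 216 kb from its TSS. The H3K27ac promoter peaks of both were close, with fold enrichments of 16.9 (14.6 to 19.5) for SLC1A5 and 15.2 (12.6 to 18.2) for SLC1A4, whose intervals overlap. A further H3K27ac peak of fold enrichment 14.2 (11.9 to 16.8) lay in intron 1 of SLC1A5 at the TSS of a shorter transcript. CACGTG occurs upstream of SLC1A5 at 653 and 758 bases from the TSS, outside the MYC and H3K27ac peaks. Within the MYC peak the nearest variant is CACGCG, 53 bases from the summit, shown on the minus strand at chr19:47291829-47291858. At SLC1A4 the start site itself falls in a TGATGNAA match, shown on the plus strand at chr2:65216515-65216544.
SLC1A5: cgggctcagagcCACGCGgcacgcccggga
SLC1A4: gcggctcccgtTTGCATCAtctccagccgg

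SLC38A1 and SLC38A2, neighbours on chromosome 12, encode sodium-coupled carriers that concentrate glutamine and other neutral amino acids. The MYC peak of SLC38A1 at chr12:46662809-46663041 was the weakest of the 6, with a fold enrichment of 3.38 (1.98 to 5.43, 15 fragments) and a −log10 q of 1.98. It ranked 715 of 733 among MYC promoter peaks. Its summit lay 31 bases upstream of the TSS and 12 bases from CATGTG, an E-box variant found within 50 bases of the summit in 5.40% of all MYC peaks. SLC38A2, at chr12:46751971-46766556 on the minus strand, had no MYC peak, the nearest being 104 kb from its TSS. H3K27ac was nevertheless higher at the SLC38A2 promoter, at 22.6 (19.9 to 25.5, 254 fragments), than at the SLC38A1 promoter, at 12.2 (10.5 to 14.2, 165 fragments), and these intervals, which leave out the error of the rIgG control, do not overlap. SLC38A1, at chr12:46576846-46663800 on the minus strand, had 3 distal H3K27ac peaks in intron 1, the highest at 7.65 (5.89 to 9.78). The variant E-box at the SLC38A1 summit (chr12:46662828-46662857) and a TGATGNAA match in intron 1 of SLC38A2 (chr12:46765825-46765854) are shown on the minus strand with the motifs in capitals.
SLC38A1: cagcagtgacacCATGTGaccggcacggct
SLC38A2: gacgatcgataTTGCATCAgttttctttcc

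ASNS encodes the enzyme that makes asparagine from aspartate and glutamine, and its promoter is a known target of ATF4. The gene lies at chr7:97480989-97501854 on the minus strand. Its region was the plainest of the 10, with 1 MYC peak and 1 H3K27ac peak, both at the promoter. The MYC peak at chr7:97501531-97501724 had a fold enrichment of 4.62 (2.83 to 7.15, 18 fragments) and a −log10 q of 4.80, with its summit 47 bases downstream of the TSS. It lay wholly within the H3K27ac peak at chr7:97501020-97501803, whose fold enrichment was 15.5 (13.2 to 18.0, 167 fragments), and the summits were 56 bases apart. H3K27ac covered 3.92% of the bases within 10 kb of the ASNS TSS, the lowest share among the 10 genes. The TGATGNAA match from 68 to 61 bases upstream of the TSS, at chr7:97501770-97501799, lies under H3K27ac and outside the MYC peak. The CACGCG in the MYC peak, at chr7:97501594-97501623, lies 62 bases from the summit.
ASNS upstream: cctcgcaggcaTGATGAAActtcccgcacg
ASNS MYC peak: cagcatcctcctCGCGTGccctggggctgc

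**Figure D2:**
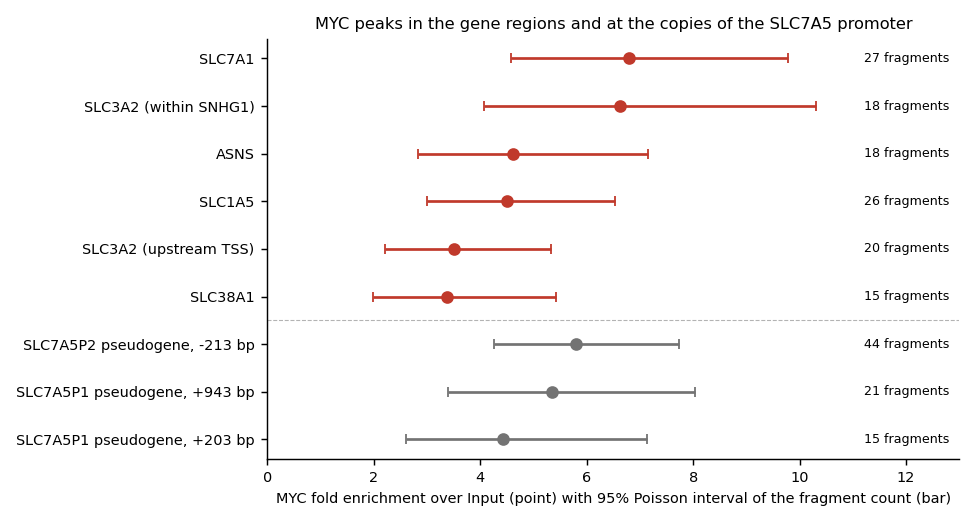
Fold enrichment over Input of the 6 MYC peaks in the gene regions (red) and of the 3 at the pseudogene copies of the SLC7A5 start (grey, with the distance in bases from the position that matches the SLC7A5 TSS). Bars are 95% Poisson intervals of the fragment count at the summit, given at the right. The red points run from 3.38 at SLC38A1 to 6.80 at SLC7A1, and all bars share a common range.

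Of the 6 MYC peaks, 4 had a fold enrichment below the median of the MYC list. The median over the 4 promoter peaks was 4.56, against 5.73 over all 733 genes with a MYC promoter peak. The intervals of all 6 peaks overlap one another, so their order is not resolved by the fragment counts. CACGTG was absent from the 50 bases on either side of all 6 summits and from the peaks as a whole, and 12.3% of all MYC peaks hold it in the same window. CACGCG lay within 50 bases of the summit in 0 of the 6 peaks as well, against 8.42% of all MYC peaks. With 6 peaks, a count of 0 is close to both shares. CACGTG within 1 kb of the TSS was present in 3 of the 10 genes, SLC7A5, SLC1A5 and SLC38A1, against 29.3% of protein-coding genes. H3K27ac peaks in the regions held 11 copies of CACGTG, or 0.201 per kb, close to the 0.193 per kb of all H3K27ac peaks.

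The composite element TGATGNAA was searched around all promoters. From 250 bases before to 50 after the TSS, it was present in SLC7A1, SLC7A11, SLC1A4 and ASNS, 4 of 10 genes, against 2.49% of protein-coding genes. Within 1 kb of the TSS it was present in 8 of 10, all but SLC7A6 and SLC1A5, against 18.7%. Other motifs searched on both strands in the window from 250 bases before to 50 after the TSS were TGACNNNGC, an antioxidant response core, in 4 genes against 14.1% and CACGCG in 4 against 15.3%. CATGTG was present in 2 genes against 8.18%, CACGTG in 1 against 8.77%, the cyclic AMP element TGACGTCA in 0 against 2.68%, and GGGCGG, a core of SP1 sites, in 10 against 61.5%. A match describes letters in the reference and not a bound factor, and ATF4 was not measured.

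Over the promoters of the 10 genes the median H3K27ac fold enrichment was 15.4, against 17.7 over all genes with an H3K27ac promoter peak. The highest H3K27ac fold enrichment of the region lay at the promoter in 7 of 10 genes, against 72.6% of genes with an H3K27ac promoter peak. Ranked by fragments at the summit, a measure added after the data were seen, it lay there in 9, all but SLC3A2, against 75.7%. By fold enrichment the exceptions were SLC7A5 with its intronic peak, SLC3A2 with its upstream TSS, and SLC7A11, where the distal peak was 1.21 times the promoter peak with overlapping intervals. In SLC3A2 the highest distal peak, 18805 bases upstream of the canonical TSS, had a fold enrichment of 12.5 (9.75 to 15.8), which overlaps the interval of the canonical promoter. Where the promoter was highest, the highest distal peak ranged from 0.188 times the promoter value in SLC38A2 to 0.625 in SLC38A1, and ASNS had no distal peak. Over the 41 distal peaks the median fold enrichment was 5.05, against 15.1 over the 12 promoter peaks. The share of the gene body and 10 kb on either side under H3K27ac ranged from 1.52% in SLC7A1 to 21.4% in SLC3A2. Its median was 7.29%, against 5.25% over genes with an H3K27ac promoter peak.

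**Figure D3:**
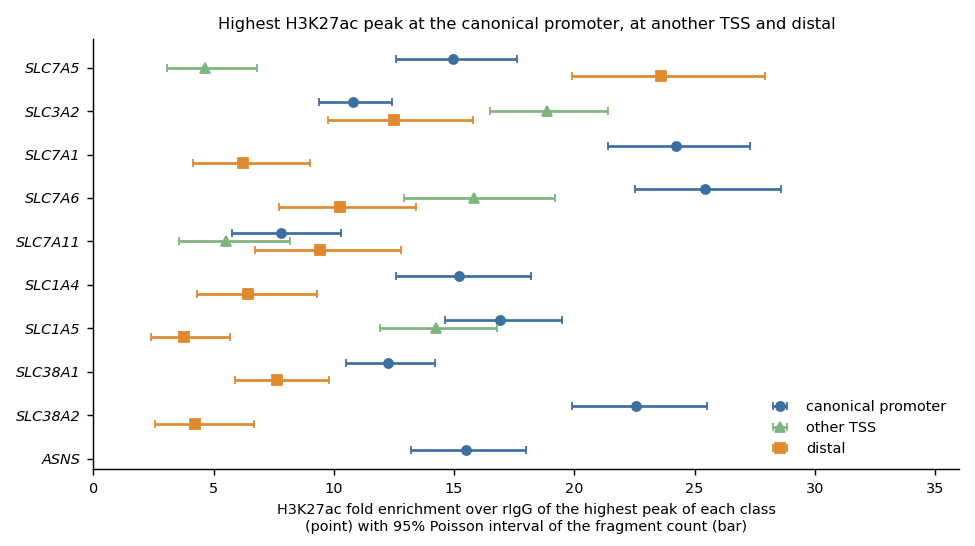
Fold enrichment over rIgG of the highest H3K27ac peak at the canonical promoter (blue circles), at another TSS (green triangles) and away from any TSS (orange squares) for each gene, with 95% Poisson intervals of the fragment count as bars. The distal point of SLC7A5 at 23.6 and the upstream TSS of SLC3A2 at 18.8 lie to the right of the promoter points of these genes.

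**Figure D4:**
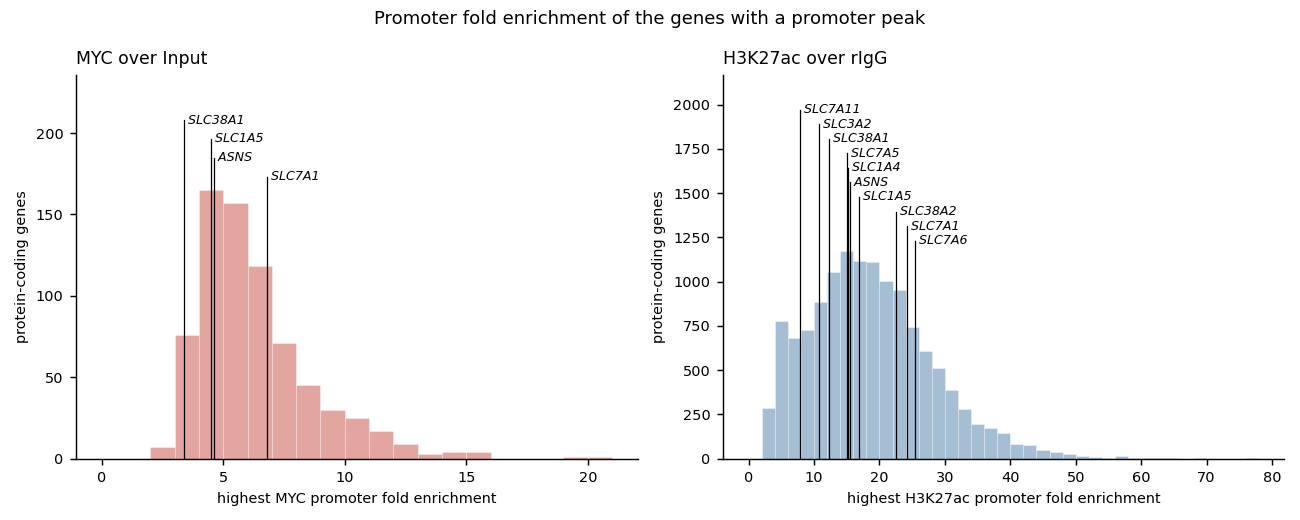
Number of protein-coding genes by the highest fold enrichment of a promoter peak, for the 733 genes with a MYC peak (left) and the 13127 with an H3K27ac peak (right), with the genes described here as black lines. SLC1A5, SLC38A1 and ASNS lie below the MYC median of 5.73 and SLC7A1 above it, and the H3K27ac values spread from 7.79 to 25.4 around the median of 17.7.

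Other genes of amino acid supply and sensing were counted by the same promoter rule, beside which stand the 3.69% of all protein-coding genes with a MYC peak and the 66.0% with an H3K27ac peak. Of 33 other amino acid transporters of the plasma membrane, 15 (45.5%) had an H3K27ac peak at the promoter and 0 a MYC peak. Of 23 genes of the ATF4 pathway and the amino acid response, 23 had an H3K27ac peak and 3 a MYC peak. These were ATF4 itself (fold enrichment 6.01), the related factor ATF5 (5.92) and the secreted hormone gene STC2 (4.53). The 27 genes of lysosomal amino acid sensing had an H3K27ac peak in 26 cases and a MYC peak in 0. In lists of this size a MYC count of 0 is near the share of all genes. Among 22 genes of glutamine, glutamate and aspartate enzymes, 21 had an H3K27ac peak and 4 a MYC peak. They were GLUD1 (6.68), which deaminates glutamate, the proline synthesis gene PYCR3 (6.30), the pyrimidine synthesis gene CAD (6.12) and GCLC (4.71), which starts glutathione synthesis. MYC fold enrichments of these 7 genes lay in the same range as those of SLC7A1, SLC1A5, SLC38A1 and ASNS.

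**Figure D5:**
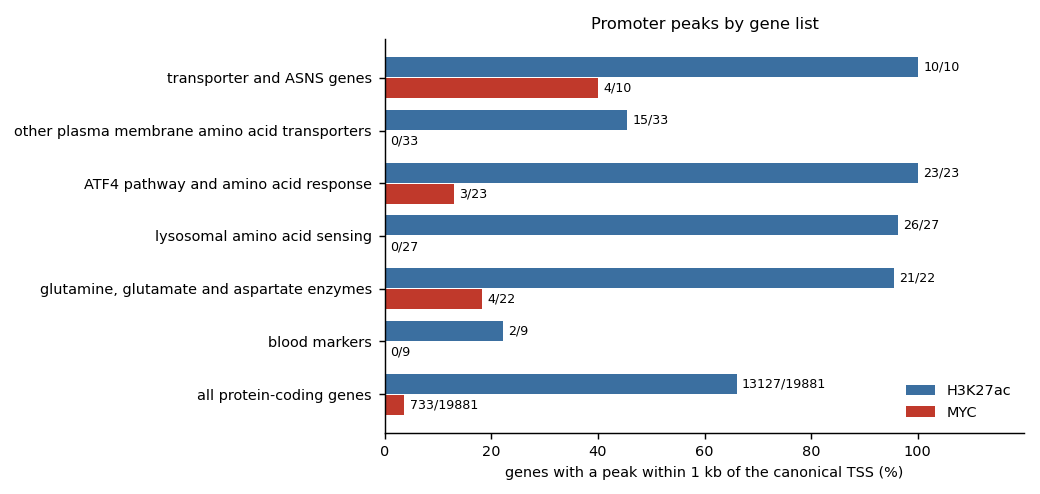
Share of genes with a peak within 1 kb of the canonical TSS, in percent, for H3K27ac (blue) and MYC (red) in each gene list and in all protein-coding genes, with the number of genes beside each bar. The 10 transporter and ASNS genes have 4 with MYC and 10 with H3K27ac, and the other transporters have 0 and 15 of 33.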

How the data were processed

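ChIP-seq peaks of MYC and H3K27ac in HAP1 cells were analysed, from 1 library each with Input and rIgG as controls. The submitters' processing notes name bcl2fastq (2.20), Bowtie2 (2.2.4) and MACS2 (2.1.1) on hg19. The authors deposited, for each peak, the fold enrichment over the control at the summit, and the −log10 of the p-value and of the q-value there. The score deposited by the authors and the summit offset are further columns, of which the score was not used. Narrow peaks were called with the default settings of MACS2, under which 1 read is kept at each position and strand. The study lists unique beside total mapped reads for each library, with fewer unique reads in each. The MYC library had the fewest unique reads, fewer than its Input, and the largest gap between total and unique reads. The pileup scale of 0.7361 for H3K27ac, given below, matches the ratio of unique rIgG reads to unique H3K27ac reads. Apart from this scaling the depths were not used here.

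Peaks were placed on GENCODE 44 genes lifted to GRCh37, and no peak extended beyond a chromosome end (0 peaks). A peak at a promoter shares at least 1 base with the canonical TSS and 1 kb on either side. Peaks elsewhere were classed by the nearest TSS within 1 kb, first of the same gene and then of another, or else as distal. Fragments at a summit are the whole number that reproduces both the fold enrichment and the p-value to within 0.0002 in −log10 p, with pileups scaled by 1 for MYC and 0.7361 for H3K27ac. A near-identical copy of a window of 201 bases was a BLAST (2.17.0) match of 90% identity or more that spanned 80% or more of it. The genome was indexed with samtools (1.23.1). Calculations used pandas (2.3.3), numpy (2.4.6), pysam (0.24.0) and scipy (1.17.1) in Python (3.11.15), with plots by matplotlib (3.10.9). The calculations were tested on simulated data.

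The genes and the gene lists were chosen with earlier results of these data known. Named are all 10 genes, every MYC peak in their regions, other genes starting within 1 kb of these peaks, the highest H3K27ac peaks of each gene at and away from the promoter, and in each list up to 5 genes with the highest MYC promoter fold enrichment. The pseudogene copies of SLC7A5 and their peaks, and the sequences shown, were chosen after the values were seen. The 282 protein-coding genes without a canonical TSS were not analysed here. DDIT4, which lacks a canonical TSS in this annotation, was for that reason left out of the list of the ATF4 pathway. A further blood marker is not reported here. No test was run between samples.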

Additional observations from a re-analysis of the deposited data

How the results depend on the processing

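The stricter threshold, a −log10 q of 10 or more, left 1 gene with a MYC promoter peak in place of 4, 1 MYC peak in the regions in place of 6, 31 H3K27ac peaks in place of 66, and a median of 4.78% of the region under H3K27ac in place of 7.29%. These follow from the smaller number of peaks. That median was 9.97% in gene bodies alone and 13.1% within 10 kb of the TSS. Counting CACGCG and CATGTG as well as CACGTG gave 1 MYC peak with a motif within 50 bases of the summit (SLC38A1) in place of 0. A promoter distance of 500 bases or 2 kb, and a summit within 1 kb, left the MYC count at 4, and any annotated TSS gave 5. The number of genes with an H3K27ac promoter peak was 10 in all of these settings. Gene bodies alone held 5 MYC and 53 H3K27ac peaks, and 25 kb on either side held 8 and 87. No paired analysis was possible because the counts come from no test and each sample is 1 library. The number of genes whose highest H3K27ac peak lay at the promoter was 7 by fold enrichment and 9 by fragments, an alternative added after the data were seen. The 6 MYC peaks in the gene regions held 15 to 27 fragments, which sets the width of their intervals, and the smallest called anywhere held 7.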
